A study of Strongylocentrotus purpuratus and Patiria miniata with 14 samples.

Results

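At mesenchyme blastula, 24 hours post fertilization (hpf), the chromatin of the bat sea star embryo held 3940 regions in which both replicates had an ATAC-seq peak and in which no replicate had one at late gastrula (66 hpf) or bipinnaria larva (90 hpf). ATAC-seq cuts DNA with a transposase that reaches only chromatin not covered by nucleosomes or other proteins, so a peak marks a stretch that was accessible in at least part of the cells. The regions were selected on the peak calls themselves: peaks of the 6 sea star lists that overlapped by at least 1 bp were merged, and a merged region was kept if it had a peak in both 24 hpf lists and in none of the other 4. They made up 3.72% of the 105823 merged regions and 8.67% of the 45468 regions with a peak in both 24 hpf lists. The values that follow at 24 hpf therefore describe regions already chosen for having peaks there, and their absence from the later lists is not a result. All 6 libraries came from wild type, untreated whole embryos of Patiria miniata, 2 for each of the 3 stages, in a series of 14 libraries whose others are from sea urchin. The sources do not say whether the replicates were separate cultures, and their spread may therefore be technical. Positions are given on the scaffolds of the Pmin_3.0 assembly, counted from 1. Whole embryos mix every cell type, so a region open in fewer cells cannot be told apart from one less open in each cell.

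Mesenchyme blastula is the stage at which the hollow embryo is about to gastrulate. In echinoderms the territories of ectoderm, endoderm and mesoderm are being set up at this time by transcription factors and signals that act through enhancers and promoters, most of which lie in accessible chromatin. Sea stars form their mesenchyme later than sea urchins and make no larval skeleton. By late gastrula the gut has formed, and by bipinnaria the larva swims and feeds. A peak by itself says neither that the stretch regulates a gene nor which gene.

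The regions called only at 24 hpf were weakly enriched. Each deposited peak has a fold enrichment, the pileup of reads at its summit over the local background, and a −log10 p for that pileup. The median fold enrichment of the 3940 regions was 4.25 in replicate 1 and 4.18 in replicate 2, against 6.09 and 6.13 in the 41528 regions that both 24 hpf lists shared with at least 1 later list. Their median −log10 p was 7.54 in replicate 1 and 7.16 in replicate 2, against 15.8 and 15.6. Their quartiles were 3.61 and 5.14 fold in replicate 1 and 3.53 and 4.97 fold in replicate 2, so that their upper quartiles stayed below the medians of the regions shared with later stages. The range ran from 1.86 to 14.8 fold in replicate 1 and from 1.78 to 12.6 fold in replicate 2. Only 63 of the 3940 regions, or 1.60%, reached in both replicates the median fold of the regions called in all 6 lists, which was 6.98 in replicate 1 and 7.15 in replicate 2.

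In reads, the enrichment was small. Fold and p together fix the summit pileup, which came out as a whole number of reads in 100% of peaks, within 0.001 in −log10 p. The median summit held 16 reads in replicate 1 and 15 in replicate 2, over local backgrounds of 2.56 and 2.40 reads. The regions shared with later lists had 28 and 27 reads over 3.37 and 3.16. In 24.4% of the regions called only at 24 hpf, the local background was at the genome-wide level in both replicates, against 13.8% of the regions shared with later lists. These pileups count overlapping extended read ends, so neighbouring values share reads.

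The 2 replicates ranked the regions less closely than they ranked stronger ones. The rank (Spearman) correlation of their fold was 0.62, against 0.88 across the regions shared with later lists. Across the 3940 regions, the log2 fold of replicate 1 and of replicate 2 had a Pearson correlation of 0.66, against 0.90 across the regions shared with later lists, which span a wider range. The fold differed between replicates by at most 1.5 times in 93.5% of the regions and by more than 2 times in 0.406%. The summits of the replicates lay a median of 35 bp apart, and within 50 bp of each other in 63.9% of the regions. In the regions shared with later lists the values were 27 bp and 67.5%. Regions called only at 90 hpf were alike in their own lists, with a Pearson correlation of 0.71, a median of 33 bp and 64.0% within 50 bp.

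**Figure D1:**
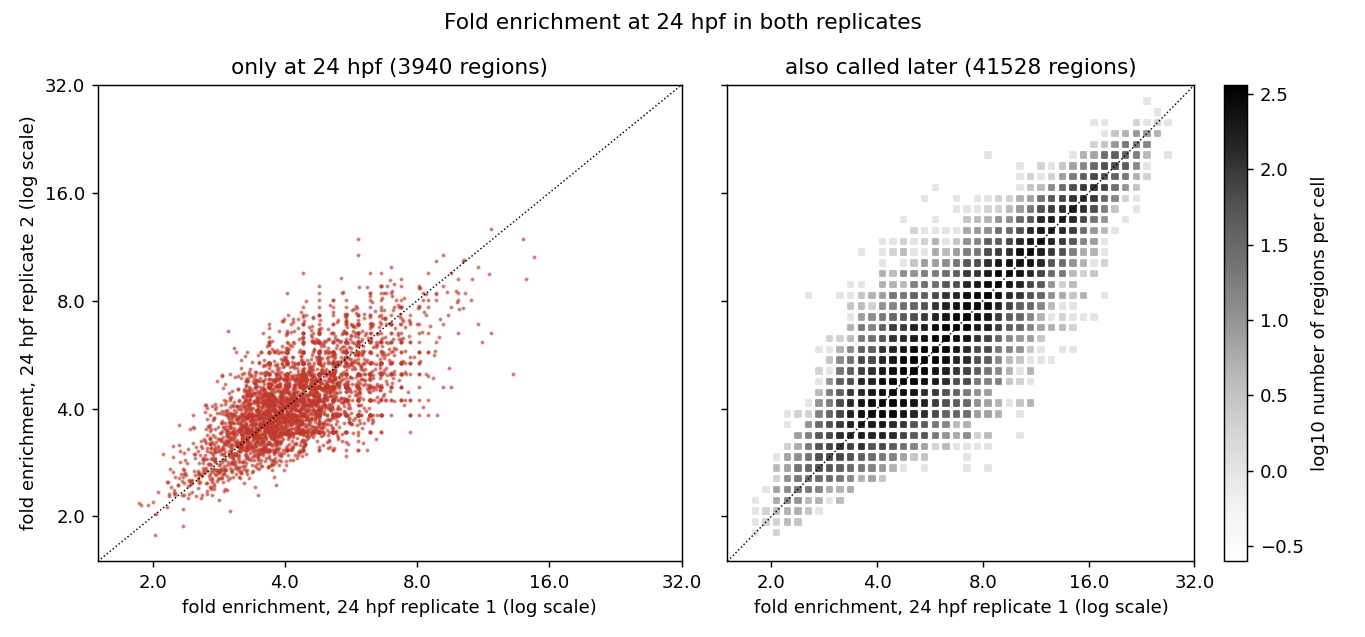
Fold enrichment at 24 hpf in replicate 1 (horizontal, log scale) against replicate 2 (vertical, log scale), for the 3940 regions called only at 24 hpf (left, 1 point per region) and for the 41528 regions also called later (right, cells shaded by the log10 number of regions); the dotted line marks equal values. The regions called only at 24 hpf fill the lower end of the range, with medians of 4.25 and 4.18 fold, and few exceed 8 fold.

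The share of regions confined to the 24 hpf lists was tied to peak strength. When the 45468 regions with a peak in both 24 hpf lists were put in 10 equal groups (deciles) by the −log10 p of the weaker replicate, 27.8% of the weakest decile had no later peak. The share was 20.6% in the second decile, 11.0% in the fourth, 3.21% in the sixth and 0.330% in the eighth. In the strongest decile, 0 of 4547 regions lacked a later peak. The weakest 3 deciles held 1262, 937 and 714 of the 3940 regions. The same grouping at 90 hpf ran close to it in the weaker deciles, with 28.9% in the weakest, and differed in the stronger ones. In the eighth decile 15 regions were called only at 24 hpf, against 65, or 1.31%, called only at 90 hpf, and in the ninth 5, against 23. In all, 4503 regions called only at 90 hpf made up 9.11% of those with a peak in both 90 hpf lists. Regions called only at late gastrula were scarcer, at 7.10% of the weakest decile and 0 of each of the strongest 3 deciles. They numbered 615, or 1.47% of those with a peak in both 66 hpf lists. Late gastrula is the middle stage, with a sampled stage on either side, and its lists were the shortest, with 56044 and 58073 peaks. The part of either in the low count was not tested.

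**Figure D2:**
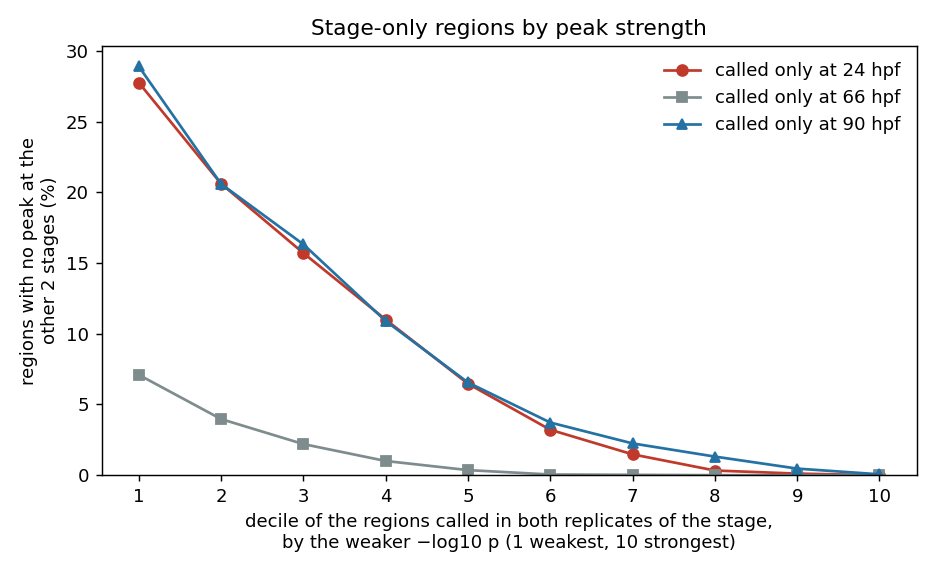
Percent of regions with no peak at the other 2 stages (vertical), by decile of peak strength from weakest (1) to strongest (10, horizontal), for regions with a peak in both replicates at 24, 66 or 90 hpf. The 24 hpf curve falls from 27.8% to 0%, the 90 hpf curve runs close to it in the weaker deciles and ends at 0.0607%, and the 66 hpf curve starts at 7.10%.

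Peaks as weak as most of these often had no counterpart in the other list of their own stage. Of the 17997 peaks of 24 hpf replicate 1 between the quartiles of the regions' −log10 p, 27.8% had no peak in replicate 2, and of the 18618 such peaks of replicate 2, 35.8% had none in replicate 1. The missing share in the later lists was 39.2 to 46.8% for the peaks of replicate 1 and 40.1 to 50.98% for those of replicate 2. These peaks include 2074 and 2018 peaks of the regions called only at 24 hpf, which by selection were found in the other 24 hpf list and in no later one. Without them, 31.4% of the peaks of replicate 1 were missing from replicate 2, and 31.3 to 39.9% from the later lists. For replicate 2 the shares were 40.1% missing from replicate 1 and 32.9 to 45.02% from the later lists. Both versions were shaped by the selection, so no order between stages is read from them. A further 5079 regions were in replicate 1 of 24 hpf alone of all 6 lists and 6304 in replicate 2 alone.

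**Figure D3:**
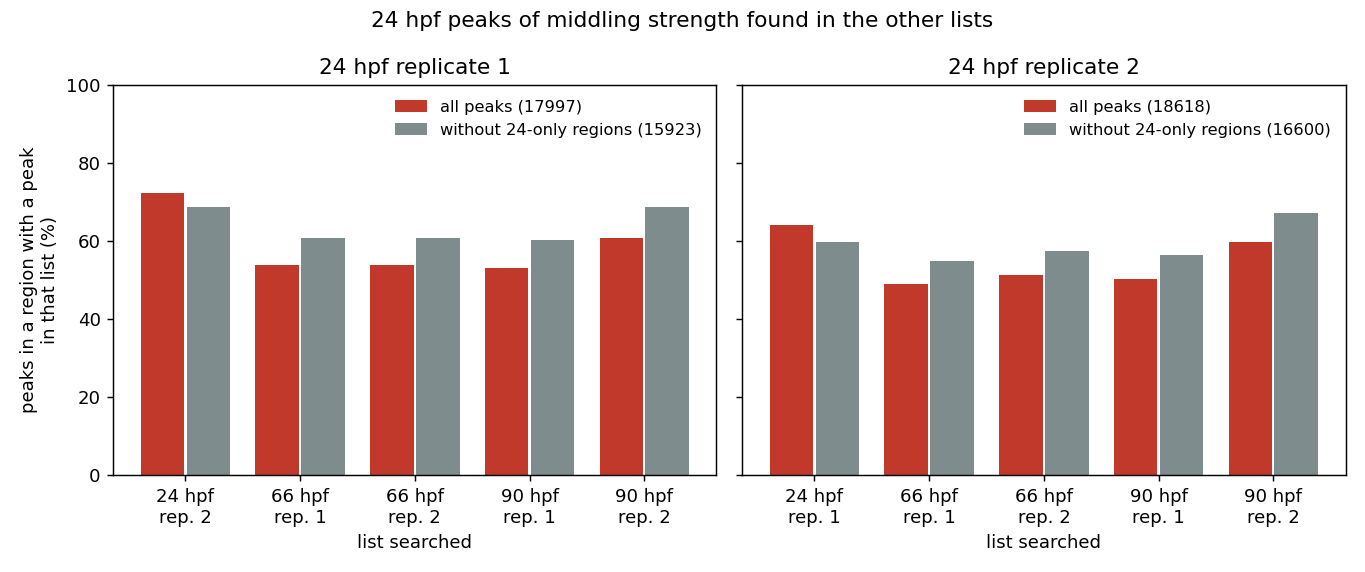
Percent of 24 hpf peaks of middling strength that lie in a merged region with a peak in the list named below each bar (vertical axis from 0 to 100%), for peaks of replicate 1 (left, 17997) and replicate 2 (right, 18618) and for those left without the regions called only at 24 hpf (grey, 15923 and 16600). The other 24 hpf list held 72.2% and 64.2% of all of them, and 68.6% and 59.9% without those regions, whose place in the lists the selection fixes.

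The genome-wide background, which scales with the number of reads used, was 1.72 and 1.61 reads in the 24 hpf replicates, 1.27 and 1.11 in those of 66 hpf and 1.62 and 1.93 in those of 90 hpf. When each summit pileup and local background was scaled by the ratio of these backgrounds, 3896 of the 3940 regions, or 98.9%, had an expected −log10 p above the lowest value listed in every later library, whichever 24 hpf replicate was carried over. The 44 others fell short in the 66 hpf lists, which had the lowest background. The calculation takes the expected pileup at the summit and leaves out the scatter of reads around it and the length a peak would have. The pileups were those of regions selected for a call in both 24 hpf lists. It therefore does not say how many regions a later list would have missed by counting error, and the part of thresholds and depth in the missing later peaks was not tested.

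Regions that missed the selection by a single later list were nearly as many. A peak in both 24 hpf lists and in exactly 1 of the 4 later lists was found in 3131 regions: 875 were in 66 hpf replicate 1, 661 in 66 hpf replicate 2, 514 in 90 hpf replicate 1 and 1081 in 90 hpf replicate 2. The most came from 90 hpf replicate 2, the longest list, with 72079 peaks against 56044 to 63340 in the other 5. In these regions the median fold at 24 hpf was 4.47 in replicate 1 and 4.42 in replicate 2, close to that of the selected regions, and the single later peak had a median fold of 3.99. Just outside the selection, the weakest later peaks were those in NW_024037076.1:23916329-23916606, with 7 reads and 2.90 fold in 66 hpf replicate 2, NW_024037047.1:21090950-21091132, with 25 reads and 1.96 fold in 90 hpf replicate 2, and NW_024037068.1:3945493-3945762, with 8 reads and 2.88 fold in 90 hpf replicate 2. Just inside it, the weakest regions were NW_024037065.1:8712427-8712622, with 14 and 9 reads at 24 hpf in replicates 1 and 2, NW_024037059.1:41790323-41790444, with 15 and 12 reads, and NW_024037074.1:11087490-11087736, with 12 and 7 reads. The fold of these last regions was between 2.56 and 4.32.

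The strongest regions were far from the threshold at 24 hpf. Ranked by the p of the weaker replicate, the first was NW_024037072.1:25759901-25760629, 729 bp wide, with 60 reads and 10.2 fold in replicate 1 and 59 reads and 10.4 fold in replicate 2. Its −log10 p of 43.4 and 43.3 placed it in the top 10.2% and the top 8.96% of the peaks of each list. The next region called in any library lay 4480 bp away, and the nearest region called in all 6 lists 7.07 kb away. It was 95.6 kb from the nearest other region called only at 24 hpf.

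The next was NW_024037047.1:29190938-29191563, with 54 reads and 10.2 fold in replicate 1 and 44 reads and 10.3 fold in replicate 2. The summits of the replicates were 4 bp apart. NW_024037056.1:5318666-5319151 had the highest fold of the 10 strongest in replicate 1, at 14.0, with 11.9 in replicate 2, and its background was at the genome-wide level in both. Its summits, of 37 and 30 reads, were 3 bp apart, and no other called region lay within 11290 bp. NW_024037064.1:13236980-13237379 was similar, with 11.8 and 12.6 fold from 31 and 32 reads, and stood 184.003 kb from the nearest region called in all 6 lists.

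Others among the 10 strongest stood beside regions that were called elsewhere. NW_024037063.1:5752776-5753164 had 80 and 77 reads but only 4.87 and 5.26 fold, over a local background of 15.6 and 13.8 reads, and a region called in all 6 lists lay 1.095 kb away. NW_024037063.1:3556528-3556916 had 7.66 and 7.07 fold and another called region 113 bp away. NW_024037069.1:38569771-38570189, with 8.28 and 7.45 fold, lay 284 bp from a second region called only at 24 hpf. The others were NW_024037047.1:26373731-26374866, NW_024037076.1:2092988-2093460 and NW_024037055.1:3313041-3313549, with folds between 5.62 and 9.83. Strong as they were for this class, 4997 of the 41528 regions shared with later lists matched or exceeded the first of the 10 in the p of the weaker replicate, and 10245 the last.

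The regions were shorter than those shared with later lists. Their median width was 240 bp (quartiles 202 and 288 bp), against 387 bp in the regions shared with later lists and 438 bp in the regions called in all 6 lists. The median of all merged regions was 264 bp. A merged region widens with the number of peaks it joins, and 3729 of the 3940 were made of exactly 2 peaks, 1 per replicate. The single 24 hpf peaks were therefore compared as well. Their median width was 204 bp in both replicates, against 299 and 301 bp in the regions shared with later lists. Regions called only at 90 hpf, which also join few peaks, had a median width of 246 bp, and those called only at 66 hpf 219 bp. Together the 3940 regions covered 0.992 Mb of the 32.02 Mb in all merged regions.

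Much of the difference in width went with strength. Within the weakest decile by p, the 24 hpf peaks had a median width of 155 bp in the regions called only at 24 hpf and 170 bp in those shared with later lists (mean of the 2 replicates). In the third decile the widths were 212 and 227 bp, and in the fifth 267 and 274 bp. The fold at equal decile differed as little, with 3.75 against 3.84 in the weakest decile and 4.63 against 4.69 in the third.

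The widest regions were compound. NW_024037061.1:13628284-13629564 spanned 1281 bp and joined 6 peaks, 3 in each replicate, none above 5.26 fold or 19 reads, and its best peaks in the 2 replicates had summits 576 bp apart. NW_024037047.1:26373731-26374866, also among the 10 strongest, spanned 1136 bp. It was a single peak of 1132 bp in replicate 2 with 57 reads, and 2 peaks of 444 and 589 bp in replicate 1 with 26 and 55 reads. NW_024037061.1:16653523-16654341 was 819 bp wide from peaks of 797 and 771 bp, with 7.03 and 6.26 fold. A wide region of this class could thus be a row of weak peaks or a pair of strong ones.

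Most of the regions had other called regions nearby. The nearest called region of any kind was a median of 0.748 kb away, near the 0.842 kb of all merged regions and the 0.786 kb of regions called in all 6 lists. A region called in all 6 lists was a median of 4.19 kb away. Within 1 kb of a region called in all 6 lists lay 833 of them, or 21.1%, against 15.3% of the regions called only at 90 hpf. Regions called in all 6 lists had another of their kind within 1 kb in 26.8%, at a median distance of 3.08 kb. A window of 50 kb centred on one held a median of 13 other called regions, against 12 around a region called only at 90 hpf and 13 around one called in all 6. Only 12 of the 3940 had none in that window. At equal strength this class lay as far or farther from a region called in all 6 lists than the regions shared with later lists. The medians were 4.63 kb against 4.13 kb in the weakest decile, 4.26 kb against 4.16 kb in the second and 4.02 kb against 4.01 kb in the third. They were 3.81 kb against 3.46 kb in the fourth decile and 3.33 kb against 2.99 kb in the fifth. They were 4.13 kb against 3.30 kb in the sixth and 3.45 kb against 2.83 kb in the seventh, which held 67 of the regions. The regions shared with later lists include the 29123 called in all 6, measured here to another of their own kind. The part of this in the gap was not tested.

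A later peak stood close to many of them without touching the merged region. In 218 regions, or 5.53%, a later peak came within 100 bp, and in 1601 more it lay up to 1 kb away, so that 1819 regions, or 46.2%, had a later peak within 1 kb. No such share is given for other kinds of region, so it is not read as a trait of these. By the wider measure of any called region within 1 kb, the share was 57.0% of these regions and 55.2% of all merged regions. The median fold of the 1601 regions was 3.97 in replicate 1 and 3.92 in replicate 2, over local backgrounds of 3.49 and 3.31 reads. The 238 regions with no later peak within 10 kb had 5.14 and 4.71 fold over 1.72 and 1.61 reads. Fold was thus lower where later peaks were near, and the local background there was higher, while −log10 p differed less, with medians of 7.538 and 7.202 against 8.33 and 7.30.

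Some of the regions were close to each other. Another region of the class lay within 10 kb of 973 regions, or 24.7%, and the median distance to it was 30.0 kb. A region called only at 90 hpf lay within 10 kb of 15.7% of them, at a median distance of 42.5 kb, although the class had 3940 regions against 4503 called only at 90 hpf. Regions called only at 90 hpf behaved alike, with another of their own kind within 10 kb in 27.5% and a region called only at 24 hpf in 13.8%. Around regions called in all 6 lists the shares lay between these: 20.0% had a region called only at 24 hpf within 10 kb, and 19.4% one called only at 90 hpf.

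**Figure D4:**
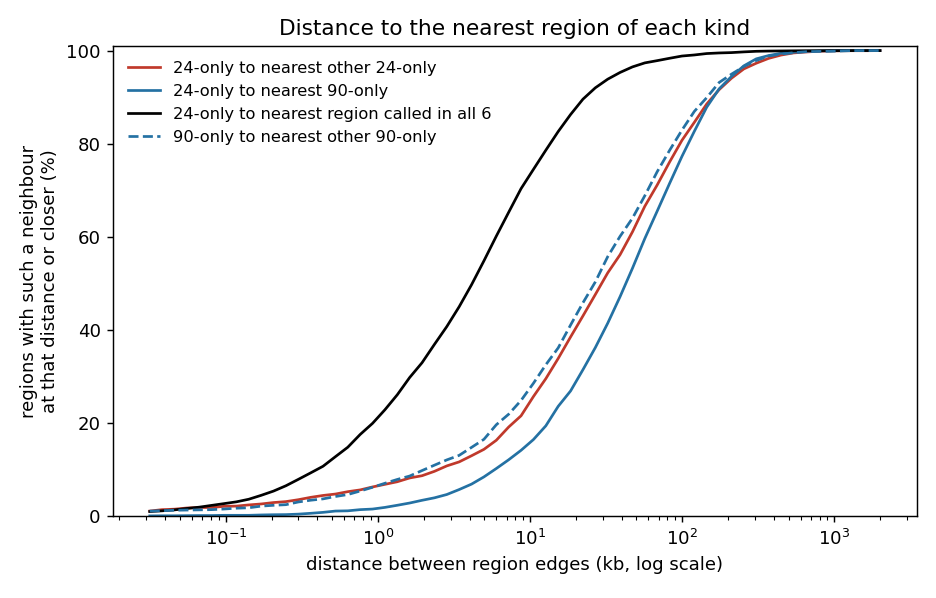
Percent of regions (vertical) with a neighbour of the named kind at the distance on the horizontal axis (kb, log scale) or closer. The curve from a 24 hpf region to the nearest other 24 hpf region passes 24.7% at 10 kb and lies left of the curve to the nearest 90 hpf region, at 15.7%; the curve to regions called in all 6 lists lies furthest left, at 73.4%.

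Chained at steps of at most 10 kb, the regions formed 372 pairs, 55 groups of 3 and 16 groups of 4, and the other 2967 stood alone. No group was larger than 4. The 16 groups of 4 spanned 6.49 to 25.04 kb. The tightest, NW_024037049.1:5726312-5732804, held 4 regions with 3.66 to 6.47 fold and no other called region between its ends. The group at NW_024037075.1:9120085-9130011, spanning 9.93 kb with 3.30 to 6.38 fold, had none either. In the widest, NW_024037063.1:3117743-3142781, 10 other called regions were interspersed, and the folds ran up to 9.38.

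All 30 scaffolds with a called region held regions of the class. On the 26 scaffolds with at least 500 regions called in both 24 hpf lists, the share called only at 24 hpf was between 7.29 and 10.4%, with a median of 8.68%. The highest share of all 30 was on a smaller scaffold, NW_024037049.1, named after its value was seen, with 57 of 403 regions, or 14.1%. It carried 2 of the 16 groups of 4, and some other scaffolds carried as many or more.

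Genes could be named for a small part of the regions. No Pmin_3.0 genome or annotation was at hand, and the part of the study's table of sea star elements that was used pairs 1998 elements on 3 scaffolds with gene IDs. These elements overlapped 106 of the 3940 regions and gave 91 genes. Family names came from human members of the same orthogroup, for the 8 genes that had them, and the orthogroups used were mostly the largest families, so what follows is not a survey. None of the 8 belonged to the developmental transcription factor, signalling, adhesion or matrix families that were looked for.

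The families named were of enzymes, receptors, histones and nuclear proteins. LOC119722950 shares its orthogroup with human B3GALT and B3GNT enzymes, which add galactose or N-acetylglucosamine to sugar chains. Its region, NW_024037054.1:9759103-9759284, had 23 and 30 reads and 2.94 and 3.92 fold. LOC119723321 groups with the ST6GALNAC sialyltransferases, which cap sugar chains, and its region had 3.76 and 4.10 fold. LOC119723528 groups with the natriuretic peptide receptors NPR1 to NPR3, and its region, NW_024037055.1:4067334-4067565, had 4.04 and 4.98 fold from 10 and 12 reads. LOC119723406 groups with the H2B core histones. Its region at NW_024037055.1:2236571-2236840 had 80 and 72 reads but only 2.86 and 3.07 fold, the highest pileup and the lowest fold in both replicates among the regions of these 8 genes. LOC119722968 groups with the MYM-type zinc finger proteins ZMYM2 to ZMYM5 and QRICH1, and 2 regions were paired with it, with 4.46 and 3.93 fold and with 6.23 and 5.0 fold. The other 3 genes, LOC119723229 (WFDC2 and WFDC3, secreted proteins), LOC119723461 (NXPE family) and LOC119723468 (GHDC), had folds between 4.19 and 6.13.

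How many genes had several elements of any kind was not counted, so the counts that follow describe position only. Of the 91 genes, 13 were paired with more than 1 region. The most were 4, for LOC119722956, at NW_024037054.1:9936271-9936605, 9965944-9966249, 9967065-9967347 and 9971458-9971767. The fold of these 4 in replicate 1 was 4.36, 6.64, 5.15 and 4.62, and in replicate 2 it was 4.62, 7.17, 3.86 and 6.17. Among the 10 strongest regions, 1 had a gene in the table: NW_024037055.1:3313041-3313549 was paired with LOC119723486, with 5.62 and 6.27 fold from 60 and 68 reads. A second region 3.78 kb further on, NW_024037055.1:3317328-3317614, was paired with the same gene and had 3.93 and 4.08 fold.

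Around conserved elements near genes with known counterparts, the regions could be placed among the peaks of all stages. These loci were chosen after the data were seen, from the elements of the study's table of deeply conserved elements whose sea star gene shares an orthogroup with a named gene. Over the 10 loci given here, 12 of 275 called regions within 50 kb of the elements, or 4.36%, were called only at 24 hpf, near the 3.72% of all merged regions, so the counts at single loci are descriptions of position. At ARID1 (LOC119722959), whose human counterparts ARID1A and ARID1B are subunits of the SWI/SNF chromatin remodelling complex, the 32 called regions within 50 kb of the elements included 4 called only at 24 hpf, and these formed 1 of the 16 groups of 4. They lay together 39.9 to 47.9 kb before the elements, in 8.29 kb. The first, NW_024037054.1:9965944-9966249, had 6.64 and 7.17 fold from 19 and 18 reads. The last, NW_024037054.1:9973906-9974231, had 4.55 and 3.34 fold from 15 and 10 reads. The first 3 were paired in the element table with LOC119722956, as above, and not with ARID1. Inside the group, 1 other region was called, in 90 hpf replicate 2.

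**Figure D5:**
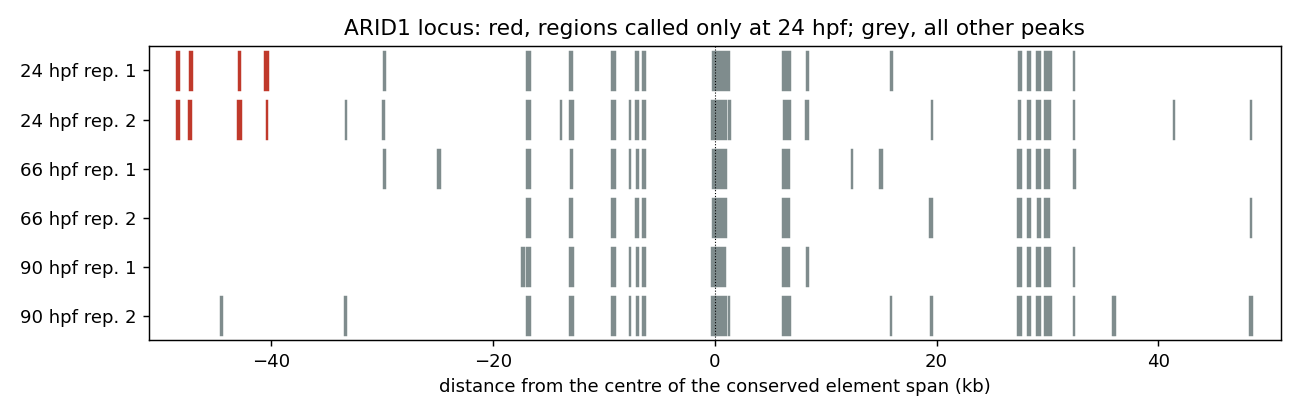
Peaks in each of the 6 sea star libraries (rows, 24, 66 and 90 hpf from top to bottom) by distance in kb from the centre of the conserved elements at ARID1; red peaks belong to regions called only at 24 hpf and grey peaks to all other regions. On this axis the 4 red regions lie together between −48.5 and −40.2 kb, apart from the 11 regions called in all 6 libraries. The red regions end 39.9 to 47.9 kb before the elements begin.

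The other loci of this kind had fewer. At Msx (LOC119739984), a homeobox transcription factor, 1 of the 46 called regions within 50 kb was called only at 24 hpf, NW_024037071.1:9969406-9969631, with 4.92 and 3.95 fold. At H2A.F/Z (LOC119732127), which encodes the H2A.Z histone variant, the 1 such region had 6.75 and 6.32 fold and lay 18.5 kb from the element. At HMG1 (LOC119727136), a high mobility group DNA-binding protein, it had 6.25 and 4.98 fold, and at eef1G (LOC119743050), a subunit of a translation elongation factor, 5.72 and 6.59 fold. The locus of LOC119721372, in the orthogroup of the integrin beta subunits, had 1, with 4.78 and 3.45 fold, and that of LOC119724331, in the orthogroup of the sodium pump beta subunits, had 1, with 4.01 and 4.22 fold. At LOC119722968 there were 2 within 50 kb. Near gnaq (LOC119729732), a G protein alpha subunit, and LOC119740949, in the orthogroup of the TLE co-repressors, there were 0 of 21 and 0 of 33 called regions.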

How the data were processed

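ATAC-seq was analysed in 6 sea star libraries; the sea urchin lists were not used. According to the methods of the study, reads were aligned to Pmin_3.0, duplicates removed, read ends offset for the transposase, short fragments kept and peaks called with MACS2 in each replicate. Bowtie2, SAMtools and MACS2 stand in the submitters' processing notes. The deposited narrowPeak lists hold, as the authors' peak caller wrote them, a fold enrichment (a ratio), the −log10 of a p-value and of a q-value, and a score. They hold no read totals, and the weakest q was between 0.0151 and 0.0484.

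Lists were merged with pandas 2.3.3, numpy 2.4.6 and scipy 1.17.1 under Python 3.11.15 and checked against bedtools 2.31.1; figures used matplotlib 3.10.9. Where a region had several peaks of a list, the one with the smallest p was used. Summit pileup n and background λ were solved from fold = (n + 1)/(λ + 1) and the Poisson p, after a test on simulated data. All values are descriptions with no test.

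The regions and lists were chosen with earlier results of these data known. The rule for named regions took the 10 strongest, the 3 widest, the 3 weakest, the 3 just outside and the largest group; 16 groups tied, so a few are given. Motifs and sequences were not analysed here, since no Pmin_3.0 genome was at hand. Results at 1 locus are not reported here.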

Additional observations from a re-analysis of the deposited data

How the results depend on the processing

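No paired analysis was possible because the results come from no test. The values were recomputed with other settings, and the cause of each shift was not tested beyond what the setting itself fixes. The number of regions called only at 24 hpf moved by over 1.5 times when no later peak was allowed within 1 kb (2121), when a peak in 1 replicate of a later stage was tolerated (8772), and when no later peak within 1 kb was combined with a q of at most 0.001 at 24 hpf (1893, a setting added after seeing the data). The number was 3067 with replicates overlapping by at least 50% of both peaks and 3525 with a q of at most 0.001 at 24 hpf only. It was 3896 with the regions expected above every later threshold at unchanged enrichment, a setting also added after seeing the data. Leaving out 1 library gave 4464 to 10578 regions. Without 24 hpf replicate 1, so that a peak in replicate 2 sufficed, there were 10578, and without replicate 2 there were 9320.

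The median fold, 4.25 as the mean of both replicates, was 4.33 with a q of at most 0.001 in all lists, 4.32 with that q at 24 hpf only, 4.49 with equal numbers of top peaks, 4.45 with no later peak within 1 kb, 4.41 with 1 replicate tolerated, 4.54 with the combined setting and 3.83 to 4.31 with 1 library left out. The median width, 240 bp, was in the same order 246, 245, 252, 242, 259 and 249 bp, 245 bp with peaks within 100 bp merged and 237 bp with replicates overlapping by at least 50% of both peaks. With 1 library left out it was 148 to 244 bp, the lowest being 148 bp without 24 hpf replicate 1 and 155 bp without 24 hpf replicate 2. The share within 10 kb of another region of the class, 24.7%, was 23.0% with a q of at most 0.001 at 24 hpf, 22.8% with peaks within 100 bp merged, 20.9% with replicates overlapping by at least 50%, 16.2% with no later peak within 1 kb, 43.5% with 1 replicate tolerated, 14.95% with the combined setting and 26.6 to 47.4% with 1 library left out. It was 47.2% without 24 hpf replicate 1 and 47.4% without 24 hpf replicate 2. With fewer or more regions on the same scaffolds, this share changes with their number.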
